A study of Rattus norvegicus with 6 samples.

Results

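Fibroblasts were followed through the first week after crush injury of the spinal cord by single-cell RNA sequencing, in an intact library and in libraries collected 1, 3 and 7 days after injury. A cell was taken as a fibroblast when Col1a1, Col1a2, Col3a1, Dcn and Lum together held at least 20 UMIs (unique molecular identifiers, 1 per captured transcript) per 10000 of the cell. It also had to hold fewer than 5 per 10000 of the endothelial genes Cldn5, Pecam1 and Cdh5, and at most 20 per 10000 of the phagocyte genes C1qa and C1qb. This gate found 467 fibroblasts among 26847 cells, with 26, 199, 130 and 112 in the intact, day 1, day 3 and day 7 libraries. The cells were chosen by the measured values of these 10 genes, so the levels of those genes are given only as a description.

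Per the labels, the animals were Rattus norvegicus of genotype SD, 6 to 8 weeks old. Injured animals had a dorsal laminectomy at T10 and a crush of the cord with iridectomy scissors. For each condition 5 animals gave a 5-mm piece of cord, which was digested with collagenase, then with trypsin, passed through a 40-µm strainer and captured with 10x Genomics 3′ chemistry after lysis of red cells. Each condition is 1 library, and whether its animals were pooled is not stated. The treatment label of the intact library names a crush injury whereas its title says intact, and the title was followed. Of the series' 6 libraries, the 2 from cords injected with MPSS or PBS were not used. The labels name rat, yet 7659 of the 28615 gene names shared by the 4 tables are of the mouse forms Gm, Rik or ENSMUSG, so symbols are printed as the tables give them.

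In the healthy cord, fibroblasts line the meninges and the outer coat of larger vessels. They make fibrillar collagens, proteoglycans and part of the basement membrane, and after a lesion they are known to divide and to lay down the collagen-rich core of the scar, which astrocytes border. Activated fibroblasts also release chemokines and acute phase proteins, and those that take on contractile genes are called myofibroblasts.

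Fibroblasts made up 0.943% (0.617 to 1.38) of cells in the intact library, 2.70% (2.35 to 3.10) on day 1, 1.40% (1.17 to 1.66) on day 3 and 1.5% (1.24 to 1.80) on day 7, with exact Clopper-Pearson 95% intervals. The intervals cover the counting of cells in 1 library only. With the added removal of cells carrying leukocyte or mural transcripts, 20, 120, 61 and 36 fibroblasts were left, or 0.725%, 1.63%, 0.659% and 0.482% of cells from intact to day 7. The day 7 share thus fell from 1.5% to 0.482%. The order of the libraries differed: days 3 and 7 were then below the intact library, whereas by the main gate they were above it. These are shares of the cells recovered after digestion, and the other cell types in the denominator differed between days. The 5 gate genes together had a median of 208, 77.7, 100.0 and 193 UMIs per 10000 per fibroblast from intact to day 7, and was lowest on day 1. The fibroblasts nearest above the threshold held 21.1, 20.5, 21.7 and 23.1 per 10000 in that order, and the highest cells below it 11.5, 19.7, 19.5 and 17.6. Of the cells past the collagen threshold, 6, 7, 6 and 9 were removed by the endothelial threshold and a further 3, 1, 8 and 11 by the C1q threshold.

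**Figure D1:**
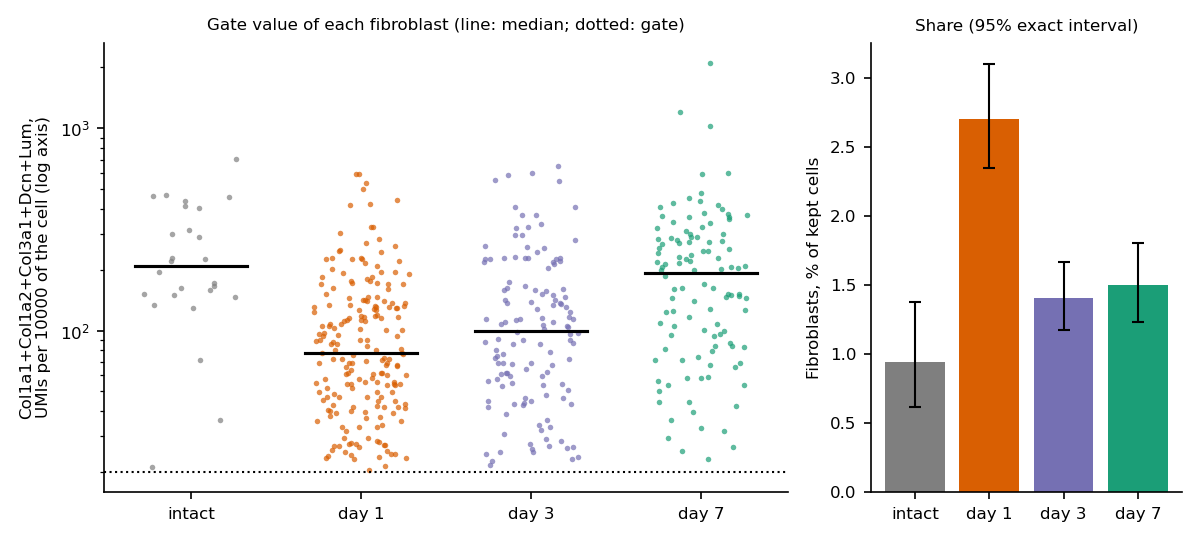
Left, the sum of Col1a1, Col1a2, Col3a1, Dcn and Lum in each fibroblast (points, UMIs per 10000 of the cell, log axis) by library. Right, fibroblasts as a percent of all cells with exact 95% intervals, highest on day 1 at 2.70%.

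The fibroblasts of a library held 127000, 1759956, 1593027 and 501643 UMIs in sum from intact to day 7. The median fibroblast held 4733, 7619, 12068 and 4467 UMIs, so fibroblasts were deepest on day 3. Levels below are CPM, counts per 1000000 of the UMIs summed over the fibroblasts of a library. Ratios of CPM carry exact binomial 95% intervals, which cover counting error only. Since each group had a single library, no test between days was possible and the spread between animals is not known, so a gene is called higher or lower when its CPM differ at least 2-fold. Genes were counted where the pooled level expected at least 10 UMIs in each sum. An alternative is named beside a result where it ended a 2-fold difference. The gate alternatives were a collagen threshold of 50 per 10000 and the removal of cells with leukocyte (Tyrobp, Fcer1g, Ptprc) or mural (Rgs5, Kcnj8, Abcc9, Myh11) transcripts. Others were the removal of the deepest 10% of fibroblasts, a minimum of 2000 UMIs, equal weight per cell, and each cell thinned at random to 1000 UMIs. They were run for list medians and for the ratios of a set of key genes and of genes named by size of change. Ratios of other genes of the lists were not put through these alternatives, so none is named beside them. The intact library held fewer than 30 fibroblasts and was not compared, so its levels are a description. Cell barcodes of 2, 6, 5 and 2 fibroblasts also occurred in another library.

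Transcripts on the marker lists of other cell types were present and differed between libraries. The 12 microglia and macrophage markers summed to 779.5, 871, 1638 and 1976 CPM in fibroblasts from intact to day 7, against 16832, 14917, 37624 and 46986 CPM in all other cells, and 10, 12, 12 and 11 of them had a UMI. At least 5 per 10000 of these markers were held by 20 of 26, 91 of 199, 124 of 130 and 109 of 112 fibroblasts. Ms4a7 and Mrc1 were at 0 in intact fibroblasts and Mrc1 at 0 on day 7. The 10 pericyte and smooth muscle markers summed to 252, 101, 279 and 765 CPM, with 4, 9, 10 and 9 having a UMI, and Myh11, which defines smooth muscle, was at 0 in all but the day 3 fibroblasts. The 10 endothelial markers summed to 1535, 547, 219 and 666 CPM and the 9 neutrophil markers to 669, 1545, 263 and 524 CPM, with 9, 9, 10 and 9 and 7, 9, 6 and 7 having a UMI. The 9 T, NK and B cell markers reached at most 43.9 CPM, on day 7. Markers of lineages found beside the meninges or in the cord wall also differed: the arachnoid and epithelial list summed to 236, 129, 753 and 383 CPM, the oligodendrocyte list to 157, 90.9, 600.1 and 429 CPM, the Schwann cell list to 669, 192, 238 and 506 CPM, and the chondrocyte and osteoblast list to 94.5, 1173, 73.4 and 3841 CPM. Single genes held much of some sums. On day 1, fibroblasts other than those with bone genes, described below, had 492 CPM of Ly6c1 (endothelial list). They had 179 CPM of Pmp22 (Schwann cell list) and 72.1 CPM of Cldn11. Ly6c1 is also on the adventitial fibroblast list, and Cldn11 is on both the arachnoid and the oligodendrocyte lists. On day 1 the sums of these lists therefore rested in part on single genes, and the cells of origin were not tested. The part of transcripts from other cell types in the differences between days was not tested.

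Fibroblasts of all 4 libraries shared genes outside the gate, most of which encode secreted proteins. The 20 that stood farthest above all other cells in every library, by a rule set after the data were seen, were Sfrp4, Mfap5, Pcolce, Fstl1, Smoc2, Mgp, Bgn, Nbl1, Apod, Col6a1, Serpinf1, Col6a2, Serping1, Fbn1, Lbp, Col5a2, Loxl1, Igfbp6, Igf2 and Prrx1. Sfrp4, a secreted WNT antagonist, was 370.2-, 380.1-, 284- and 332-fold above the other cells from intact to day 7. Mfap5, a microfibril protein, was 367-, 239-, 235- and 542-fold above them. Pcolce, which enhances the cleavage of procollagen, was 150.2-, 142-, 162- and 285-fold above them and had a UMI in 26 of 26, 171 of 199, 120 of 130 and 101 of 112 fibroblasts. Prrx1, a transcription factor of mesenchymal cells, stood at 291, 182, 208 and 225 CPM, a narrow range. Some of the 20 were not particular to fibroblasts. Cells gated as pericytes and smooth muscle held 4888 CPM of Mgp on day 1, against 3777 in fibroblasts. In the intact library 10 such cells held 1233 CPM of Nbl1 and 668 of Bgn, against 906 and 614 in fibroblasts. They held 0 CPM of Mfap5 in every library and at most 5.69 of Sfrp4. The gate selects on matrix genes, so this is a description of the selected cells.

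Between day 1 and day 3, 566 of 8957 counted genes were at least 2-fold higher (6.32%) and 493 lower (5.5%). Between day 3 and day 7, 307 of 5376 were higher (5.71%) and 404 lower (7.51%). Day 7 against day 1 gave 406 of 5321 higher (7.63%) and 448 lower (8.42%). The 3 comparisons share libraries and are not independent. The counts given below for each list are to be read beside these shares, and counts near them are not read as a result about the list. The median log2 ratio of all counted genes was -0.01, -0.04 and -0.02 in that order. By list medians, chemokine genes were lower on days 3 and 7 than on day 1, contractile and cell cycle genes were higher on day 3 than on day 1, and collagen and basement membrane genes were higher on day 7 than on day 1.

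**Figure D2:**
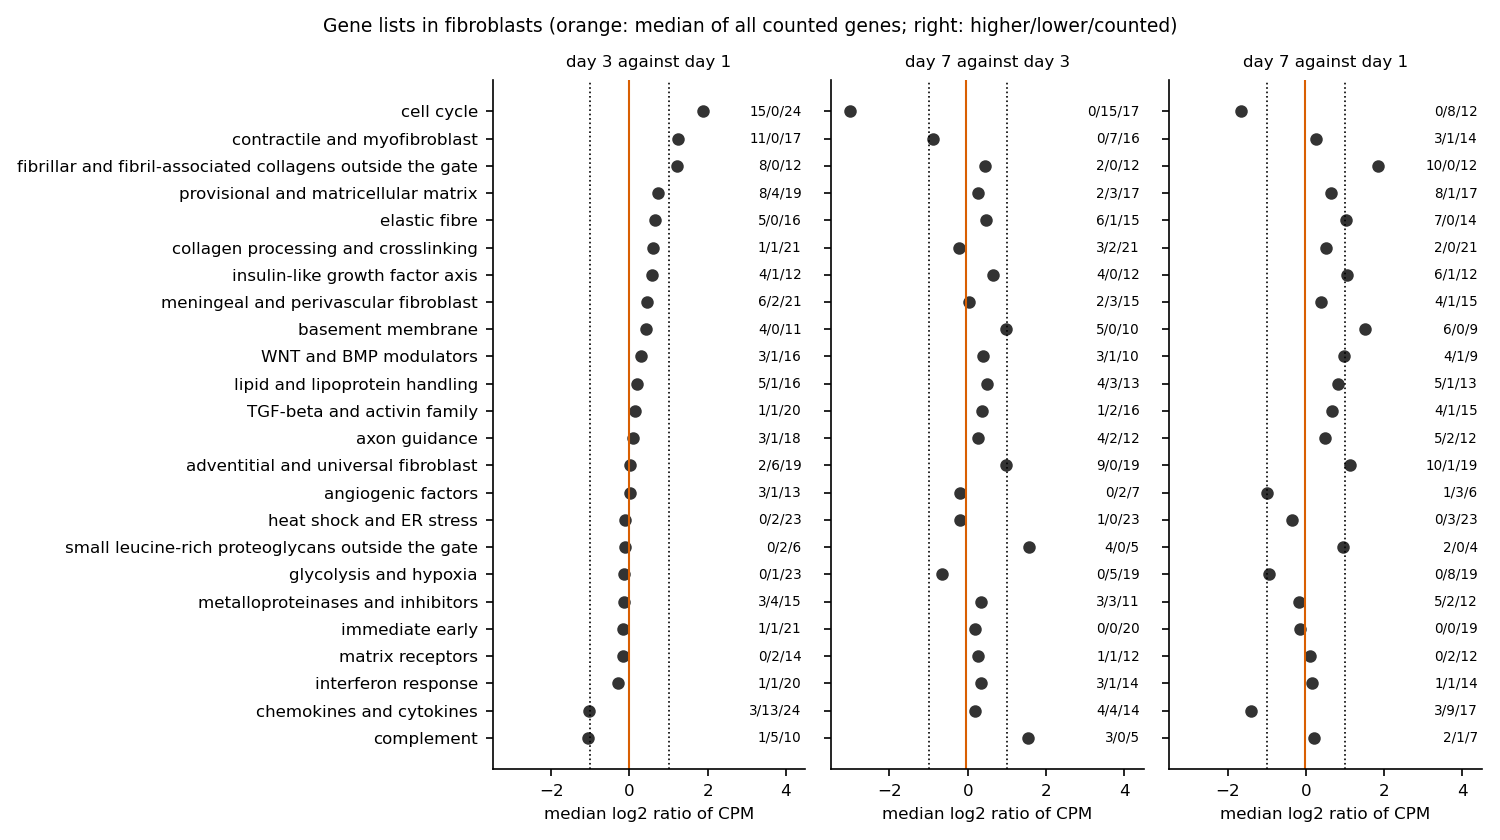
Median log2 ratio of CPM of each of 24 gene lists (points) in the 3 comparisons of days, beside the median of all counted genes and lines at 2-fold. The cell cycle list runs from 1.89 on day 3 against day 1 to -3.02 on day 7 against day 3.

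Most collagens outside the gate were higher on days 3 and 7 than on day 1. Of 14 listed there were 8 higher and 0 lower of 12 counted on day 3 against day 1, 2 higher and 0 lower of 12 on day 7 against day 3 and 10 higher and 0 lower of 12 on day 7 against day 1, with median log2 ratios of 1.21, 0.44 and 1.83. Col5a1, a chain of the collagen V that starts fibrils, had 78.7 CPM in the intact library, 48.3 on day 1, 238 on day 3 and 231 on day 7. It was 4.93-fold higher (95% interval 3.88 to 6.31) on day 3 than on day 1, and days 3 and 7 were level. Col6a3, a chain of the beaded-filament collagen VI, had 70.9, 73.3, 275 and 361 CPM from intact to day 7 and was 4.92-fold higher (3.91 to 6.22) on day 7 than on day 1. Col8a1, of the short-chain collagen VIII, was highest on day 3, with 149.6, 501, 1176 and 709.7 CPM. Col14a1, a collagen on fibril surfaces, had 425, 102, 126 and 261 CPM and was 2.08-fold higher (1.66 to 2.61) on day 7 than on day 3. The gate itself selected on 3 collagen genes.

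Basement membrane genes past 2-fold were higher on the later day in every comparison. Of 20 listed there were 4 higher and 0 lower of 11 counted on day 3 against day 1, 5 higher and 0 lower of 10 on day 7 against day 3 and 6 higher and 0 lower of 9 on day 7 against day 1, with median log2 ratios of 0.43, 0.99 and 1.52. Col4a1, a main chain of the basement membrane collagen IV, had 47.2, 115, 84.1 and 355 CPM and was 4.22-fold higher (3.35 to 5.32) on day 7 than on day 3. In endothelial cells, taken as cells with at least 10 per 10000 of Cldn5, Pecam1 and Cdh5 that pass neither the collagen nor the C1q threshold, Col4a1 had 959, 342 and 166 CPM on days 1, 3 and 7, a decreasing order of levels unlike that in fibroblasts. Col4a1 was also among the leading genes of fibroblast group 4, described below, at 463 CPM against 83.7 in the other fibroblasts. The pericyte marker Vtn is a leading gene of that group too. Pericyte and smooth muscle markers in fibroblasts were highest on day 7, at 765 CPM. Their part in the Col4a1 levels was not tested. Col15a1, a collagen between basement membrane and stroma, had 142, 6.82, 18.2 and 163 CPM and was 8.98-fold higher (5.82 to 14.2) on day 7 than on day 3. Its level in endothelial cells was at most 1.41 CPM, and 1 fibroblast held 28% of its day 7 UMIs. Col18a1, the source of endostatin, had 23.6, 16.5, 43.3 and 122 CPM.

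Small leucine-rich proteoglycans other than Dcn and Lum, which coat and space collagen fibrils, were mostly higher on day 7 than on day 3. Of 9 listed there were 0 higher and 2 lower of 6 counted on day 3 against day 1, 4 higher and 0 lower of 5 on day 7 against day 3 and 2 higher and 0 lower of 4 on day 7 against day 1, with median log2 ratios of -0.12, 1.56 and 0.96. Aspn, encoding asporin, had 850.4, 110.2, 134 and 813 CPM and was 6.08-fold higher (5.14 to 7.21) on day 7 than on day 3. Ogn, encoding osteoglycin, had 488, 191, 134 and 413 CPM and was 3.09-fold higher (2.54 to 3.75) on day 7 than on day 3. Bgn, encoding biglycan, had 614, 1468, 1771 and 2568 CPM, and none of its ratios between days reached 2-fold.

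Elastic fibre genes gave 5 higher and 0 lower of 16 counted on day 3 against day 1, 6 higher and 1 lower of 15 on day 7 against day 3 and 7 higher and 0 lower of 14 on day 7 against day 1, with median log2 ratios of 0.65, 0.48 and 1.03. The last median drops below 1 in 6 alternatives, TMM and median-of-ratios scaling among them. Mfap4, a microfibril-associated protein, had 7.87, 58.0, 92.3 and 548 CPM and was 5.94-fold higher (4.85 to 7.31) on day 7 than on day 3. Fbn1, encoding fibrillin, had 1047, 224, 369 and 1120.3 CPM and was 3.04-fold higher (2.70 to 3.41) on day 7 than on day 3. Elastin itself, Eln, ran differently and was highest on day 3, with 55.1, 492, 1102 and 506 CPM.

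Provisional and matricellular matrix genes, which mark early scar matrix, split between days. Of 23 listed, 19 were in the tables, with 8 higher and 4 lower of 19 counted on day 3 against day 1, 2 higher and 3 lower of 17 on day 7 against day 3 and 8 higher and 1 lower of 17 on day 7 against day 1, and median log2 ratios of 0.72, 0.27 and 0.64. Fibroblasts with bone genes, described with Mmp13 below, held 50.6% of the day 1 UMIs of Tnc, 70.7% of those of Spp1 and 61.9% of those of Fap, all 3 among the genes lower on day 3. Without fibroblasts carrying osteoblast or neuron markers the 3 list medians were 0.64, -0.17 and 0.68, so that of day 7 against day 3 changed sign. Spp1, encoding osteopontin and chosen after its values were seen, was 2.14-fold lower (2.06 to 2.23) on day 3 than on day 1, and 1.53-fold higher without the fibroblasts with bone genes. Cthrc1, a secreted protein of scar fibroblasts, had 31.5 CPM in the intact library, 201 on day 1, 1166 on day 3 and 486 on day 7. It was 5.80-fold higher (5.17 to 6.52) on day 3 than on day 1 and 2.40-fold lower (2.10 to 2.75) on day 7 than on day 3, while all other cells held 15.3 CPM on day 3. The second ratio drops just under 2-fold, to a log2 of -1.0, when cells with leukocyte or mural markers are left out. Postn, encoding periostin, had 15.7, 75, 250.5 and 291 CPM and was 3.34-fold higher (2.74 to 4.10) on day 3 than on day 1. That call is lost without the same cells, at a log2 of 0.47.

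Fn1, encoding fibronectin, had 969, 238, 856 and 1138 CPM and was 3.6-fold higher (3.23 to 4.03) on day 3 than on day 1. Other cells held 216, 732, 439 and 182 CPM of it, so on day 1 the fibroblast level was below theirs. Sparc, a collagen-binding matricellular protein, had 3717, 2022, 4304 and 8568 CPM and was 4.24-fold higher (4.05 to 4.43) on day 7 than on day 1. Its ratio of day 3 to day 1, 2.13-fold higher (2.04 to 2.22), drops to a log2 of 0.92 with equal weight per cell, 0.83 with thinned cells and 0.90 without cells carrying leukocyte or mural markers. Thbs2, a thrombospondin, was highest on day 3, with 55.1, 77.8, 318 and 171 CPM. Ccn5, a matricellular protein, was instead highest on day 1, with 118, 815, 454 and 165 CPM.

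Most genes of collagen maturation stayed within 2-fold between days, as did most counted genes. Of all counted genes, 6.32% were higher and 5.5% lower on day 3 against day 1. The shares were 5.71% and 7.51% on day 7 against day 3, and 7.63% and 8.42% on day 7 against day 1. Of 23 listed there were 1 higher and 1 lower of 21 counted on day 3 against day 1, 3 higher and 2 lower of 21 on day 7 against day 3 and 2 higher and 0 lower of 21 on day 7 against day 1, with median log2 ratios of 0.60, -0.22 and 0.51. Serpinh1, the collagen chaperone, had 1339, 1503, 2239 and 1663 CPM, and none of its ratios reached 2-fold. Lox, which crosslinks collagen and elastin, had 78.7, 515, 592 and 313 CPM against at most 3.50 CPM in all other cells, and its ratios too stayed under 2-fold. Loxl2, of the same enzyme family, had 63.0, 50.6, 160.1 and 85.7 CPM and was 3.17-fold higher (2.48 to 4.08) on day 3 than on day 1. Pcolce2, a second procollagen enhancer, had 622, 61.4, 11.9 and 81.7 CPM and was 5.15-fold lower (3.14 to 8.88) on day 3 than on day 1.

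**Figure D3:**
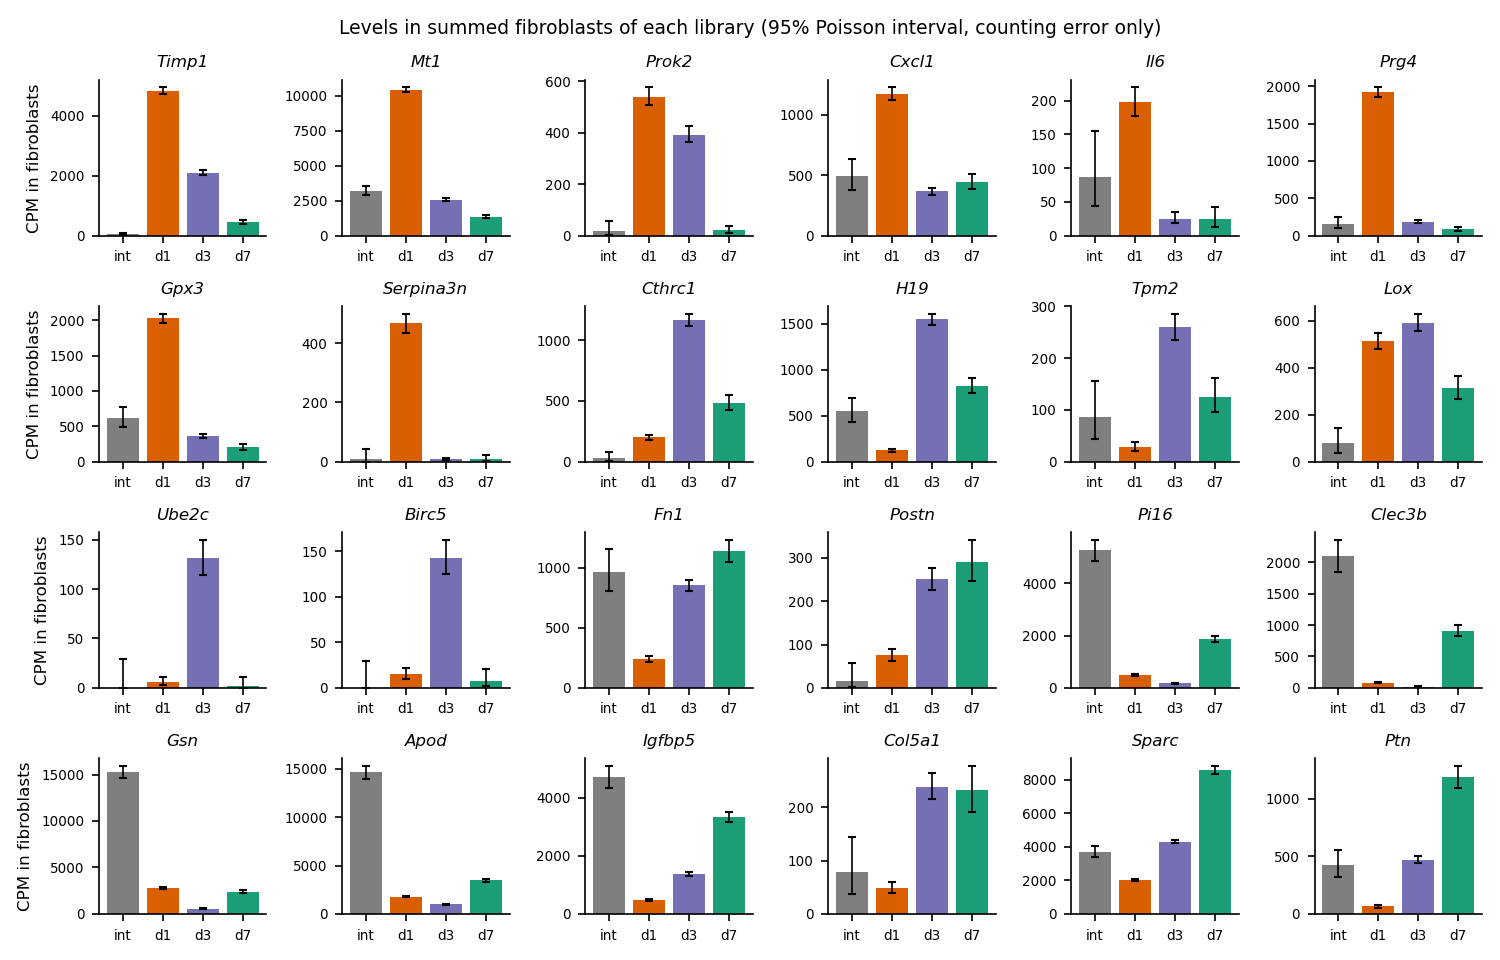
CPM of 24 genes in the summed fibroblasts of each library (bars, with exact Poisson 95% intervals for counting error). Timp1 and Mt1 are highest on day 1, Cthrc1 and H19 on day 3, Sparc and Ptn on day 7, and Pi16 and Gsn in the intact library.

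Timp1, a secreted inhibitor of metalloproteinases, was highest on day 1 among the injured libraries. It had 39.4 CPM in the intact library, 4851 on day 1, 2106 on day 3 and 451 on day 7, with a UMI in 4 of 26, 184 of 199, 120 of 130 and 61 of 112 fibroblasts. It was 2.30-fold lower (2.21 to 2.40) on day 3 than on day 1 and 4.67-fold lower (4.08 to 5.37) on day 7 than on day 3, while other cells held 175, 43.8 and 4.34 CPM on days 1, 3 and 7. The first ratio drops to a log2 of -0.39 with the collagen threshold at 50 per 10000, -0.92 without the deepest 10% of fibroblasts and -0.98 with thinned cells. The 19 metalloproteinases and inhibitors gave 3 higher and 4 lower of 15 counted on day 3 against day 1, 3 higher and 3 lower of 11 on day 7 against day 3 and 5 higher and 2 lower of 12 on day 7 against day 1, with median log2 ratios of -0.15, 0.33 and -0.18. Mmp2, a gelatinase, had 126, 83.5, 99.8 and 291 CPM and was 2.92-fold higher (2.31 to 3.67) on day 7 than on day 3. Mmp14, the membrane protease that activates it, had 31.5, 67.6, 128 and 171 CPM. Mmp3, or stromelysin, had 0, 48.3, 3.77 and 3.99 CPM and came from 14 fibroblasts on day 1.

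A few fibroblasts with bone genes carried most of Mmp13, a collagenase that bone and cartilage cells also make. Mmp13 had 0, 481, 7.53 and 285 CPM, with a UMI in 0, 20, 4 and 9 fibroblasts from intact to day 7. On day 1, 16 fibroblasts held at least 5 per 10000 of Bglap, Bglap2 and Ibsp, and on day 7 8 did, against 0 in the other libraries. Without them Mmp13 had 4.14, 7.53 and 36.1 CPM on days 1, 3 and 7. Tnc, encoding tenascin C, had 0, 240.3, 60.9 and 144 CPM with all fibroblasts and 124, 60.9 and 33.9 CPM on days 1, 3 and 7 without these cells. Its ratio of day 7 to day 3 turned from 2.36-fold higher (1.71 to 3.23) to 1.79-fold lower, and was also under 2-fold with the collagen threshold at 50 per 10000 and with at least 2000 UMIs per cell.

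Most contractile genes that were counted were higher on day 3 than on day 1. Of 18 listed there were 11 higher and 0 lower of 17 counted on day 3 against day 1, 0 higher and 7 lower of 16 on day 7 against day 3 and 3 higher and 1 lower of 14 on day 7 against day 1, with median log2 ratios of 1.24, -0.88 and 0.27. The first median drops below 1 with equal weight per cell. Tpm2, a muscle tropomyosin, had 86.6, 28.4, 259.9 and 126 CPM and was 9.15-fold higher (6.81 to 12.5) on day 3 than on day 1, with a UMI in 83 of 130 fibroblasts. Actg1, cytoplasmic gamma actin, had 1394, 1317, 3761 and 1790.1 CPM and was 2.86-fold higher (2.72 to 3.00) on day 3 than on day 1. Acta2 and Tagln, the smooth muscle actin and transgelin that mark myofibroblasts, were rarer.

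Acta2 had 0, 3.41, 374 and 81.7 CPM, and 38 of 130 fibroblasts had a UMI on day 3. A single day 3 fibroblast held 53.4% of them, and without the highest cell of each library Acta2 stood at 1.70, 174 and 39.9 CPM on days 1, 3 and 7. Tagln had 0, 3.41, 248 and 43.9 CPM, and 2.27, 169 and 25.9 CPM on those days without its highest cells. Both genes thus stayed highest on day 3 among the injured libraries when 1 cell was left out. Cells gated as pericytes and smooth muscle held 639, 6106 and 4759 CPM of Acta2 on days 1, 3 and 7. The pericyte and smooth muscle markers of the fibroblasts summed to 252, 101, 279 and 765 CPM from intact to day 7, and Myh11 had UMIs on day 3 only. Their part in the Acta2 and Tagln levels was not tested. Actg2, enteric smooth muscle actin, was at 0 on day 1 and had 87.3 CPM on day 3, of which 1 fibroblast held 63.3%.

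Genes of adventitial fibroblasts, the resting population around vessels, were higher on day 7 than on day 3 in 9 of 19 cases. The list of 22 gave 2 higher and 6 lower of 19 counted on day 3 against day 1, 9 higher and 0 lower of 19 on day 7 against day 3 and 10 higher and 1 lower of 19 on day 7 against day 1, with median log2 ratios of 0.02, 0.98 and 1.12. The last median drops below 1 in 6 alternatives, among them the removal of cells with leukocyte or mural markers. Pi16, a peptidase inhibitor that marks this population, had 5252 CPM in the intact library, 477 on day 1, 165 on day 3 and 1864 on day 7. It was 11.3-fold higher (9.84 to 13.0) on day 7 than on day 3. On day 3 it was 2.89-fold lower (2.51 to 3.33) than on day 1, a call lost with equal weight per cell at a log2 of -0.33 and with thinned cells at -0.37. Clec3b, encoding tetranectin, had 2094, 83.0, 18.2 and 913 CPM, was 50.2-fold higher (34.4 to 75.7) on day 7 than on day 3, and had a UMI in 15 of 26, 38 of 199, 9 of 130 and 50 of 112 fibroblasts.

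Cd34, a surface sialomucin of adventitial and endothelial cells, had 913, 61.4, 52.1 and 411 CPM and was 7.88-fold higher (6.08 to 10.3) on day 7 than on day 3. Dpt, encoding dermatopontin, had 283, 58.5, 51.5 and 217 CPM. Gsn, the actin-severing protein gelsolin, had 15244, 2781, 546 and 2408 CPM and was 5.10-fold lower (4.74 to 5.49) on day 3 than on day 1. Ly6a, a surface protein of stromal and endothelial cells, had 2528, 1475, 353 and 1405 CPM and is abundant in endothelial cells, at 4257, 7638, 3595 and 4059.7 CPM. Ccn3, a matricellular protein named by size of change, had 189, 30.7, 39.5 and 395 CPM, and Lypd2 had 803, 14.8, 20.7 and 223 CPM. Myoc, encoding myocilin, had 661, 267, 6.91 and 407 CPM and a UMI in 13 of 26, 46 of 199, 4 of 130 and 33 of 112 fibroblasts. It was 38.7-fold lower (21.4 to 78.0) on day 3 than on day 1 and 58.9-fold higher (32.2 to 119.8) on day 7 than on day 3.

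Meningeal and perivascular genes gave 6 higher and 2 lower of 21 counted on day 3 against day 1, 2 higher and 3 lower of 15 on day 7 against day 3 and 4 higher and 1 lower of 15 on day 7 against day 1, with median log2 ratios of 0.46, 0.04 and 0.40, from 31 listed. Aldh1a2, a retinoic acid-making enzyme of the meninges, had 0, 5.68, 45.8 and 39.9 CPM and a UMI in 0 of 26, 3 of 199, 11 of 130 and 6 of 112 fibroblasts. Crabp2, which binds retinoic acid, had 78.7, 498, 873 and 269 CPM and was 3.24-fold lower (2.72 to 3.9) on day 7 than on day 3. Slc47a1, a transporter of meningeal cells, had 110.2, 48.9, 129 and 195 CPM and was 2.65-fold higher (2.05 to 3.44) on day 3 than on day 1. Ptgds, prostaglandin D synthase, was low in fibroblasts, with 47.2, 32.4, 31.4 and 12 CPM, and Slc6a13, a GABA transporter of meningeal fibroblasts, had 63.0, 6.82, 10.7 and 37.9 CPM.

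Pdgfra, the growth factor receptor that marks fibroblasts, had 142, 146, 68.4 and 122 CPM in fibroblasts and 7.03, 7.96, 7.01 and 10.6 CPM in other cells. It was 2.13-fold lower (1.70 to 2.70) on day 3 than on day 1, but the call is lost with equal weight per cell, at a log2 of -0.62, and with thinned cells, at -0.30. Its relative Pdgfrb had 31.5, 42.0, 62.8 and 91.7 CPM and was 2.18-fold higher (1.48 to 3.19) on day 7 than on day 1. That call is lost with the collagen threshold at 50 per 10000, at a log2 of 0.81, without the deepest 10% of fibroblasts, at 0.97, and with at least 2000 UMIs, at 0.81.

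Genes named singly or by size of change included secreted acute phase proteins that were highest on day 1. Serpina3n, a serine protease inhibitor, had 7.87 CPM in the intact library, 468 on day 1, 8.16 on day 3 and 9.97 on day 7, with a UMI in 1 of 26, 119 of 199, 10 of 130 and 5 of 112 fibroblasts. It was 57.3-fold lower (33.3 to 108) on day 3 than on day 1. Saa1, a serum amyloid A protein, had 0, 628, 0.628 and 1.99 CPM, but its day 1 UMIs came from 10 fibroblasts, and 1 of them held 38.0%. Saa3, of the same family, had 0, 339.8, 18.8 and 112 CPM, with 55.0% of its day 1 UMIs in 1 fibroblast. Prg4, the lubricin of gliding surfaces, had 157, 1920.5, 186 and 85.7 CPM and was 10.3-fold lower (9.18 to 11.7) on day 3 than on day 1. Gpx3, a secreted peroxidase, had 622, 2027, 365 and 209 CPM and was 5.56-fold lower (5.09 to 6.08) on day 3 than on day 1. Mt1, a zinc-binding metallothionein chosen after its values were seen, had 3205, 10429.8, 2572 and 1348 CPM.

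Chemokines and cytokines were mostly lower on day 3 than on day 1. Of 27 listed there were 3 higher and 13 lower of 24 counted on day 3 against day 1, 4 higher and 4 lower of 14 on day 7 against day 3 and 3 higher and 9 lower of 17 on day 7 against day 1, with median log2 ratios of -1.03, 0.19 and -1.40. The first median drops below 1 in size when cells are thinned, and the last with at least 5 expected UMIs. Il6, which drives the acute phase response, had 86.6, 198, 25.1 and 23.9 CPM and was 7.87-fold lower (5.67 to 11.2) on day 3 than on day 1. In the intact library its UMIs came from 1 cell. Cxcl1, a neutrophil attractant, had 496, 1175, 366 and 445 CPM and was 3.21-fold lower (2.93 to 3.53) on day 3 than on day 1. Cxcl5, of the same receptor group, had 0, 253, 181 and 1.99 CPM in 0, 24, 14 and 1 fibroblasts. Its days 1 and 3 differed by less than 2-fold, and day 7 was 91.0-fold lower (16.2 to 3607) than day 3. Prok2, a secreted prokineticin, followed that order with 15.7, 541, 392 and 19.9 CPM and was 19.7-fold lower (10.6 to 41.2) on day 7 than on day 3, against at most 7.18 CPM in all other cells.

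Ptx3, a soluble pattern-recognition protein, had 0, 144, 70.3 and 1.99 CPM. Il11, a cytokine of activated stroma, had 0, 125, 27.0 and 1.99 CPM in 0, 13, 13 and 1 fibroblasts. Ccl2, a monocyte attractant, had 110.2, 737, 372 and 506 CPM in fibroblasts and 136, 1401, 535 and 211 CPM in other cells, and none of its ratios reached 2-fold. Cxcl12, which retains leukocytes and progenitors, had 94.5, 441, 323 and 395 CPM and also stayed under 2-fold. Fibroblasts with bone genes held 33.1% of its day 1 UMIs, and the other day 1 fibroblasts had 307 CPM. Ccl11, an eosinophil attractant, had 441, 56.3, 11.3 and 35.9 CPM and was 4.98-fold lower (2.99 to 8.74) on day 3 than on day 1. Il33, a nuclear alarmin of stroma, had 157, 297, 196 and 65.8 CPM and was 2.98-fold lower (2.08 to 4.4) on day 7 than on day 3. That call is lost with the collagen threshold at 50 per 10000, at a log2 of -0.95.

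Complement genes gave 1 higher and 5 lower of 10 counted on day 3 against day 1, 3 higher and 0 lower of 5 on day 7 against day 3 and 2 higher and 1 lower of 7 on day 7 against day 1, with median log2 ratios of -1.06, 1.53 and 0.20, from 15 listed. The first median drops below 1 in size in 6 alternatives and the second in 2. C3, the central component, had 0, 47.2, 11.9 and 3.99 CPM. Cd55, which protects cells from complement, had 598, 38.1, 32.0 and 179 CPM and was 5.6-fold higher (3.93 to 8.06) on day 7 than on day 3.

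Insulin-like growth factor genes gave 4 higher and 1 lower of 12 counted on day 3 against day 1, 4 higher and 0 lower of 12 on day 7 against day 3 and 6 higher and 1 lower of 12 on day 7 against day 1, with median log2 ratios of 0.58, 0.65 and 1.04, from 13 listed. The last median drops below 1 in 7 alternatives, TMM and median-of-ratios scaling among them. Igfbp5, a binding protein that also sits in matrix, had 4709 CPM in the intact library, 486 on day 1, 1377 on day 3 and 3331 on day 7. It was 2.83-fold higher (2.62 to 3.07) on day 3 than on day 1 and 2.42-fold higher (2.27 to 2.58) on day 7 than on day 3. The second call is lost with equal weight per cell, at a log2 of 0.83, with thinned cells, at 0.98, and without the deepest 10% of fibroblasts, at 0.87. Igfbp2 had 23.6, 15.3, 28.2 and 289 CPM, and its day 7 UMIs came from 19 of 112 fibroblasts. Igfbp3 ran the other way, with 0, 275, 119 and 104 CPM, and was 2.65-fold lower (1.99 to 3.6) on day 7 than on day 1, a call lost with the collagen threshold at 50 per 10000 at a log2 of -0.91.

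Igf1, the growth factor itself, had 307, 386, 206 and 456 CPM in fibroblasts and 5.77, 4.89, 73.1 and 259.7 CPM in other cells. H19, the imprinted noncoding RNA beside Igf2, had 551, 123, 1549.9 and 825 CPM and was 12.6-fold higher (11.0 to 14.6) on day 3 than on day 1. Igf2 had 276, 157, 176 and 253 CPM, and none of its ratios reached 2-fold. In the intact library 1 cell held 80% of the H19 UMIs and 4 cells had any.

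TGF-beta and activin genes gave 1 higher and 1 lower of 20 counted on day 3 against day 1, 1 higher and 2 lower of 16 on day 7 against day 3 and 4 higher and 1 lower of 15 on day 7 against day 1, with median log2 ratios of 0.14, 0.36 and 0.67. Of all counted genes, 6.32% were higher and 5.5% lower on day 3 against day 1, and 5.71% and 7.51% on day 7 against day 3. The TGF-beta and activin counts of these comparisons were near those shares and are not read as a result about the list. Inhba, an activin subunit, had 7.87, 31.3, 49.0 and 1.99 CPM. Fstl1, a follistatin-like secreted protein, had 1244, 662, 1207 and 2360.2 CPM and was 3.57-fold higher (3.29 to 3.87) on day 7 than on day 1. Tgfb1 had 0, 9.09, 10.0 and 116 CPM, but 1 fibroblast held 87.9% of its day 7 UMIs. WNT and BMP modulators gave 3 higher and 1 lower of 16 counted on day 3 against day 1, 3 higher and 1 lower of 10 on day 7 against day 3 and 4 higher and 1 lower of 9 on day 7 against day 1, with median log2 ratios of 0.30, 0.40 and 0.96. Sfrp4 had 1126, 3842, 2071 and 775 CPM and was 2.67-fold lower (2.40 to 2.97) on day 7 than on day 3. Dkk3, a Dickkopf family member, had 31.5, 18.2, 65.9 and 95.7 CPM and was 3.63-fold higher (2.42 to 5.57) on day 3 than on day 1.

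Axon guidance and neurotrophic genes gave 3 higher and 1 lower of 18 counted on day 3 against day 1, 4 higher and 2 lower of 12 on day 7 against day 3 and 5 higher and 2 lower of 12 on day 7 against day 1, with median log2 ratios of 0.09, 0.25 and 0.50. Ptn, the heparin-binding growth factor pleiotrophin, had 425 CPM in the intact library, 65.9 on day 1, 471 on day 3 and 1186 on day 7. It was 7.15-fold higher (5.88 to 8.77) on day 3 than on day 1 and 18.0-fold higher (14.7 to 22.2) on day 7 than on day 1. In endothelial cells Ptn had 2237, 149.7, 1056 and 1798 CPM, which after injury took the same order of days. Its relative Mdk, midkine, had 165, 25.6, 99.2 and 365 CPM in fibroblasts and at most 6.58 CPM in endothelial cells. Mdk was 14.3-fold higher (10.2 to 20.2) on day 7 than on day 1. Sema3c, a secreted semaphorin, had 283, 35.2, 32.0 and 243 CPM, was 7.60-fold higher (5.44 to 10.8) on day 7 than on day 3, and had 455, 154, 248 and 399.6 CPM in endothelial cells.

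Angiogenic factors gave 3 higher and 1 lower of 13 counted on day 3 against day 1, 0 higher and 2 lower of 7 on day 7 against day 3 and 1 higher and 3 lower of 6 on day 7 against day 1, with median log2 ratios of 0.02, -0.21 and -1.0. The last median drops below 1 in size in 6 alternatives. Pgf, placental growth factor, had 47.2, 32.4, 126 and 77.7 CPM and was 3.88-fold higher (2.88 to 5.30) on day 3 than on day 1. Vegfa had 0, 30.1, 20.7 and 17.9 CPM, and none of its ratios reached 2-fold. Adm, the vasodilator adrenomedullin, had 31.5, 107, 38.3 and 17.9 CPM and was 2.79-fold lower (2.08 to 3.79) on day 3 than on day 1. Matrix receptors gave 0 higher and 2 lower of 14 counted on day 3 against day 1, 1 higher and 1 lower of 12 on day 7 against day 3 and 0 higher and 2 lower of 12 on day 7 against day 1, with median log2 ratios of -0.17, 0.26 and 0.11. The matrix receptor counts, of at most 2 genes each way, are not read as a result about the list. Sdc4, a heparan sulfate proteoglycan of focal adhesions, had 283, 627, 193 and 159 CPM and was 3.26-fold lower (2.87 to 3.71) on day 3 than on day 1. Ddr2, a receptor for fibrillar collagen, had 244, 101, 48.3 and 146 CPM and was 3.01-fold higher (2.16 to 4.20) on day 7 than on day 3.

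Most cell cycle genes were higher on day 3 than on day 1, and nearly all that were counted were lower on day 7 than on day 3. The 24 cell cycle genes gave 15 higher and 0 lower of 24 counted on day 3 against day 1, 0 higher and 15 lower of 17 on day 7 against day 3 and 0 higher and 8 lower of 12 on day 7 against day 1, with median log2 ratios of 1.89, -3.02 and -1.66. The last median drops below 1 in size in 4 alternatives. Birc5, encoding survivin, had 0 CPM in the intact library, 15.3 on day 1, 143 on day 3 and 7.97 on day 7. It was 9.33-fold higher (6.25 to 14.5) on day 3 than on day 1, with a UMI in 18 of 199, 39 of 130 and 1 of 112 fibroblasts on days 1, 3 and 7. Ube2c, a ubiquitin-conjugating enzyme of mitotic exit, had 0, 6.25, 131 and 1.99 CPM and was 21-fold higher (11.5 to 42.7) on day 3 than on day 1. Top2a, a topoisomerase of dividing cells, had 7.87, 14.2, 66.5 and 0 CPM and was at least 11.1-fold lower on day 7 than on day 3. Genes of the replication origin behaved differently: Mcm3 had 0, 29.5, 15.7 and 1.99 CPM and Mcm5 0, 26.1, 23.2 and 1.99 CPM, neither of them higher on day 3 than on day 1.

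Day 3 fibroblasts were also the deepest, so the share of cells was taken after thinning each to 1000 UMIs. Birc5 was then found in 0.503% (0.0127 to 2.77) of fibroblasts on day 1, 11.5% (6.60 to 18.3) on day 3 and 0.893% (0.0226 to 4.87) on day 7, with exact 95% intervals. Unthinned, the shares were 9.05%, 30% and 0.893%, and thinned endothelial cells had 0.163%, 1.32% and 0.0824%. The intervals cover the counting of cells in 1 library only, and no difference between days is read from these shares.

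No glycolytic gene was 2-fold higher on day 7, and part of them were lower. The 23 listed gave 0 higher and 1 lower of 23 counted on day 3 against day 1, 0 higher and 5 lower of 19 on day 7 against day 3 and 0 higher and 8 lower of 19 on day 7 against day 1, with median log2 ratios of -0.14, -0.65 and -0.93. Gapdh had 276, 1339.8, 1395 and 538 CPM in fibroblasts and was 2.59-fold lower (2.28 to 2.95) on day 7 than on day 3, while other cells had 534, 2269, 1754 and 831 CPM. Pkm, pyruvate kinase, had 299, 922, 679 and 333 CPM and was 2.77-fold lower (2.36 to 3.27) on day 7 than on day 1. Lipid genes gave 5 higher and 1 lower of 16 counted on day 3 against day 1, 4 higher and 3 lower of 13 on day 7 against day 3 and 5 higher and 1 lower of 13 on day 7 against day 1, with median log2 ratios of 0.20, 0.50 and 0.81. Apoe, a lipid carrier, had 606, 304, 925 and 4342 CPM in fibroblasts and 2304, 1079, 19659.8 and 69189.5 CPM in other cells, so both followed the same order of days. Fabp5, a fatty acid-binding protein, had 39.4, 90.3, 478 and 279 CPM in fibroblasts and 19.8, 316, 2793 and 744 CPM in other cells. How much of either was made in the fibroblasts was not tested.

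Apod, a lipocalin of perivascular fibroblasts, had 14646, 1785, 1011 and 3497 CPM. On day 7 it was 3.46-fold higher (3.23 to 3.70) than on day 3, but 1 cell held 33.9% of the day 3 UMIs. The log2 ratio was 0.59 with equal weight per cell and 0.58 with thinned cells, both under 2-fold, and reversed to -0.84 without cells carrying leukocyte or mural markers.

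Few stress and interferon genes differed 2-fold, at shares near those of all genes in most comparisons. Immediate early genes, which enzymatic digestion is known to induce, gave 1 higher and 1 lower of 21 counted on day 3 against day 1, 0 higher and 0 lower of 20 on day 7 against day 3 and 0 higher and 0 lower of 19 on day 7 against day 1, with median log2 ratios of -0.16, 0.18 and -0.15. Socs3, a feedback inhibitor of cytokine signalling in that list, had 882, 243, 117 and 191 CPM. Heat shock and endoplasmic reticulum stress genes gave 0 higher and 2 lower of 23 counted on day 3 against day 1, 1 higher and 0 lower of 23 on day 7 against day 3 and 0 higher and 3 lower of 23 on day 7 against day 1, with median log2 ratios of -0.11, -0.19 and -0.36. Ddit3, a stress transcription factor, had 70.9, 56.8, 21.3 and 63.8 CPM and was 2.66-fold lower (1.79 to 4.05) on day 3 than on day 1. Interferon response genes gave 1 higher and 1 lower of 20 counted on day 3 against day 1, 3 higher and 1 lower of 14 on day 7 against day 3 and 1 higher and 1 lower of 14 on day 7 against day 1, with median log2 ratios of -0.29, 0.35 and 0.16. Ifitm1, an antiviral membrane protein, was highest on day 3, with 39.4, 319, 744 and 319 CPM. B2m, the light chain of MHC class I, had 1181, 697, 569 and 1210.0 CPM in fibroblasts and 2656, 1870.5, 3372 and 5929.9 CPM in other cells.

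Fibroblasts were not uniform within a library. Ward clustering on 15 components of 1000 variable genes, divided into 8 groups, is given as a description. Group 5, led by Krtdap, Dmkn and Crabp2, held 127 cells, with 2, 52, 50 and 23 from intact to day 7. Group 8, led by S100a8, Postn and S100a9, held 95, with 0, 48, 39 and 8. Group 7, led by Gpx3, Gas6 and Myoc, held 71, with 5, 47, 6 and 13. Group 6, led by Pi16, Clec3b and Cd34, held 62, with 11, 9, 7 and 35, and was the most frequent group in the intact library and on day 7. Group 4, led by Tagln, Il11 and Acta2, held 50, with 0, 15, 22 and 13, and group 2, led by Apod, 32, with 8, 9, 5 and 10. Leading genes of other cell types were S100a8 and S100a9 of neutrophils in group 8, the pericyte marker Vtn in groups 2 and 4, Perp and Cldn11 of the arachnoid list in group 5, and neuronal genes such as Pcsk1n in the 4 cells of group 3. Cell numbers by group are not compared between days, since the groups were formed from the same genes.

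Group 1 was osteoblast-like by the markers Ibsp, Bglap and Bglap2. Its 26 cells came from day 1 (16) and day 7 (10). Ibsp, bone sialoprotein, had 18007 CPM in this group and 0 in all other fibroblasts. Mmp13, Spp1, Tnc and Pth1r, the parathyroid hormone receptor, were also among its leading genes. The labels name spinal cord as the tissue, and where these cells came from was not tested. Bglap3, named by size of change, had 185 CPM on day 7, of which 1 fibroblast held 84.9%. Likewise 1 fibroblast held 98.2% of Elane, a neutrophil elastase gene, and 49.1% of Sostdc1 on day 7.

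**Figure D4:**
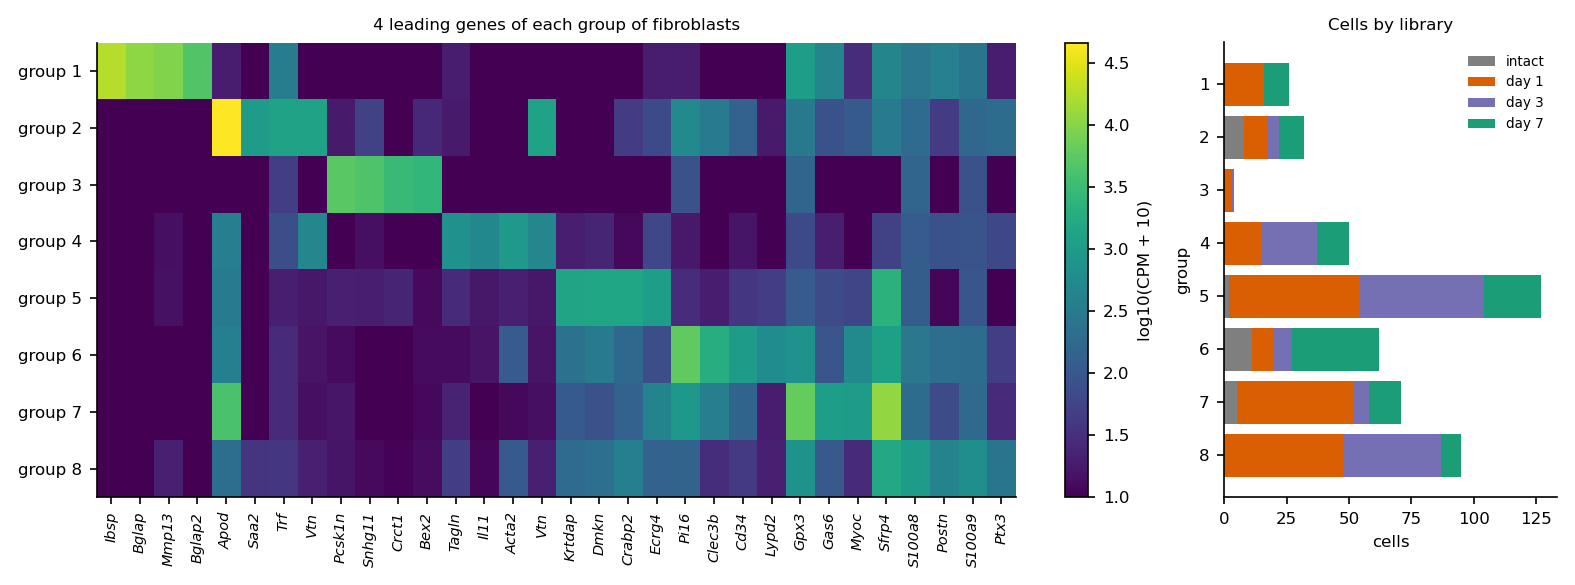
Left, log10 of CPM plus 10 for the 4 leading genes of each of 8 groups of fibroblasts. Right, the number of cells of each group by library, in which group 6 holds 35 of the 112 day 7 fibroblasts.

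Several differences between days were also seen within groups that held at least 10 cells on each day named, again as a description, since the groups were formed from the same counts. Timp1 had 10415, 2147 and 353 CPM in group 5 on days 1, 3 and 7 and 3377, 1431 and 1155 CPM in group 4. In group 8 the Timp1 levels of days 1 and 3 lay closer together, at 3515 and 2621 CPM. H19 had 256, 2565 and 1651 CPM in group 5, and 16.1 and 1233 CPM in group 8 on days 1 and 3. Cthrc1 had 179.7, 831 and 388 CPM in group 5, 59.4, 694 and 642 CPM in group 4, and 407 and 1849.9 CPM in group 8 on days 1 and 3. For H19 and Cthrc1 the day 3 level was above that of day 1 in the groups given. The part of the mix of cells in the differences between days was not tested. Sparc had 1514, 3838 and 5685 CPM in group 5 and 1332, 2602 and 6065 CPM in group 4, with the highest level on day 7 in both.

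Levels of other transcripts also differed between groups. Pi16, Gpx3, Acta2 and Birc5 are among the leading genes of groups 6, 7, 4 and 8. Their high levels there follow from how the groups were formed and are no separate result. Pi16 had 9843 CPM in group 6 of the intact library and 5166 CPM there on day 7, against 0, 16.1 and 124 CPM in group 5. Gpx3 had 8070.0 CPM in group 7 on day 1 and 166 in group 5. Il6 on day 1 had 1101 CPM in group 4, 222 in group 8 and 5.86 in group 5. Prok2 was spread in another way, with 1089.9 CPM in group 5 and 6.60 in group 4 on day 1. Acta2 on day 3 had 1623 CPM in group 4, 199.7 in group 8 and 14.5 in group 5. Birc5 on day 3 had 294, 164 and 19.4 CPM in groups 8, 4 and 5. Ptn on day 7 had 3766, 3161 and 2259.8 CPM in groups 2, 4 and 5 but 17.7 in group 6.

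Shares of cells with a UMI after thinning to 1000 UMIs showed how widely a transcript was spread. Of these fibroblasts and endothelial cells, 0 in every library were too shallow to thin. Endothelial cells stand for a type that should lack most of these transcripts, with medians of 2885, 4409, 3962 and 2512 UMIs. Timp1 was found in 7.69% (0.946 to 25.1) of intact fibroblasts, 72.9% (66.1 to 78.9) on day 1, 75.4% (67.1 to 82.5) on day 3 and 28.6% (20.4 to 37.9) on day 7. Endothelial cells had 0.174%, 13.9%, 1.60% and 0.659% from intact to day 7. Unthinned, the fibroblast shares were 15.4%, 92.5%, 92.3% and 54.5%. No difference between days is read from these shares, whose intervals cover the counting of cells in 1 library only.

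Cthrc1 was found in 11.6% (7.47 to 16.8), 53.8% (44.9 to 62.6) and 24.1% (16.5 to 33.1) of fibroblasts on days 1, 3 and 7, and in 1.71%, 4.66% and 6.51% of endothelial cells. Pi16 was found in 53.8% (33.4 to 73.4) of intact fibroblasts, then 16.6% (11.7 to 22.5), 10.8% (6.01 to 17.4) and 33.9% (25.2 to 43.5). Clec3b was found in 2.31% (0.478 to 6.60) on day 3 and 33% (24.4 to 42.6) on day 7. Unthinned, the day 3 shares were 87.7% for Cthrc1, 24.6% for Pi16 and 6.92% for Clec3b, and on day 7 58.0%, 45.5% and 44.6%.

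Ptn was found in 30.8%, 5.03%, 30.8% and 38.4% of fibroblasts from intact to day 7 and in 84.6%, 12.1%, 62.2% and 78.7% of endothelial cells, so both cell types held it, and the endothelial share is no background level for this gene. Apod on day 3 was found in 14.6% of fibroblasts and 16.8% of endothelial cells, and no expression is read from that share. Acta2 was found in 12.3% (7.20 to 19.2) of day 3 fibroblasts, against 1.18% of endothelial cells. Unthinned, 46.4% of day 7 fibroblasts had Ptn, 41.5% of day 3 fibroblasts Apod and 29.2% of them Acta2.

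**Figure D5:**
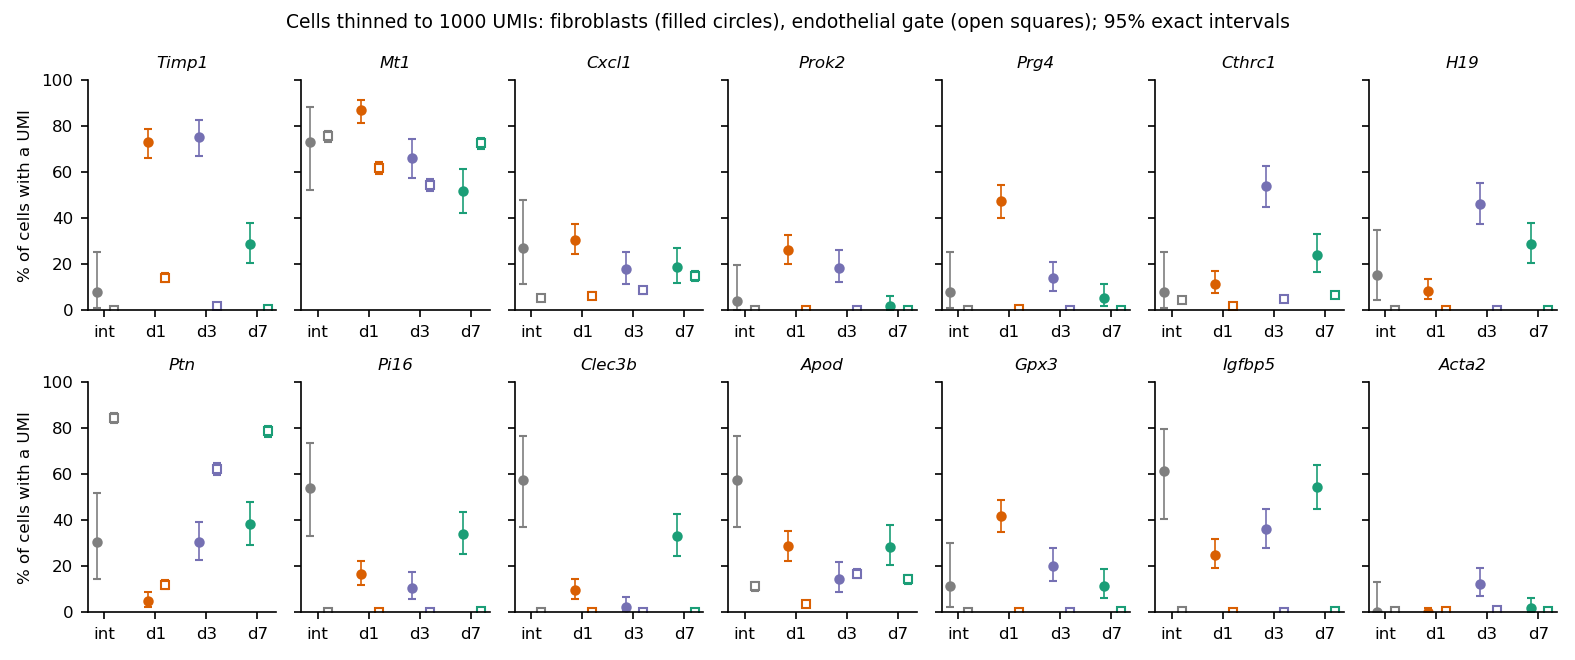
Percent of cells with a UMI of 14 genes after thinning each cell to 1000 UMIs, by library, with exact 95% intervals (filled circles, fibroblasts; open squares, cells of the endothelial gate). Timp1 and Cthrc1 on day 3 stand far above the endothelial share, and Ptn stands below it in every library.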

How the data were processed

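Single-cell RNA-seq of 4 libraries was used, 1 per group. The deposited tables hold UMI counts per gene and cell, made with Cell Ranger 3.0.2 per the submitters' processing notes. Genome build, annotation and cell calling are not given in the sources used here. Altered gene names in the intact and day 1 tables were mapped back to the other tables. Cells needed at least 200 genes, 500 UMIs and at most 20% mitochondrial UMIs, which all deposited cells met. Counts were summed over the fibroblasts of a library and scaled to CPM, with exact Poisson, binomial and Clopper-Pearson 95% intervals (python 3.11.15, numpy 2.4.6, scipy 1.17.1). Against 0 counts, folds use 3 counts per group as a lower limit. The calculations were tested on simulated data. No doublet caller was run. Some genes of the lists are not reported singly here. The members, lists and tests were chosen with earlier results of these data known. Genes named are a set of key genes, up to 4 genes per list and comparison with the largest absolute log2 ratios, and by size the 10 highest and 10 lowest ratios of CPM plus 10 (4 each for day 7 against day 1) among genes whose higher library held 50 or more UMIs, 50 or more CPM and no less CPM than its other cells, without gate, mitochondrial, ribosomal protein and haemoglobin genes, clone names and markers of other classes. Genes shared by all libraries, Mt1 and Spp1 were chosen after their values were seen. Alternatives were other gates and minimums, TMM (edgeR 4.0.16 in R 4.3.3) and median-of-ratios scaling, equal weight per cell, thinning, and leaving out cells.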

Additional observations from a re-analysis of the deposited data

How the results depend on the processing

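Gene ratios were recomputed only for the key genes and the genes named by size of change. A value was called reversed only where its sign changed from a main log2 ratio or list median of at least 1 in size. Of 2588 recomputed values of 198 gene ratios, 2207 stayed within the counting interval, 379 moved and 2 reversed. Both were on day 7 against day 3. The log2 ratio of Tnc was -0.83 without fibroblasts carrying osteoblast or neuron markers, and that of Apod -0.84 with leukocyte and mural gates added. Spp1, outside this set, also changed sign on day 3 against day 1 without the fibroblasts with bone genes. Of 999 recomputed list medians, 945 stayed, 54 moved and 0 reversed by that rule, which leaves out smaller medians. Without fibroblasts carrying osteoblast or neuron markers, that of provisional matrix on day 7 against day 3 went from 0.27 to -0.17. On day 3 against day 1, that of metalloproteinases and inhibitors then went from -0.15 to 0.02 and that of adventitial genes from 0.02 to -0.16. Genes at least 2-fold higher and lower numbered 127 and 122 on day 3 against day 1, 153 and 134 on day 7 against day 3 and 158 and 152 on day 7 against day 1 with fibroblasts thinned to 1000 UMIs. With at least 30 expected UMIs they numbered 287 and 190, 116 and 145, and 165 and 169, and with at least 5, 835 and 836, 618 and 718, and 716 and 779. With leukocyte and mural gates they numbered 132 and 184 on day 7 against day 3 and 187 and 214 on day 7 against day 1. These settings change how many genes reach the minimum. The share of fibroblasts was 1.90% on day 1 and 1.08% on day 3 with the collagen gate at 50 per 10000, and 0.725%, 1.63%, 0.659% and 0.482% from intact to day 7 with leukocyte and mural gates. Leaving out fibroblasts with osteoblast or neuron markers, or the highest cell of each gene, was chosen after seeing the data. No paired analysis was possible because each group has 1 library. Comparisons with the intact library were not run, since it held 26 fibroblasts.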
